A study of Homo sapiens with 4 samples.

Results

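Genes that mark neural stem cells or set neural lineage were followed in the glioblastoma cell line LN229, an established human line. They were chosen by name, from the platform's gene symbols, as SOX2, SOX4 and SOX11, NES, ID2, ID3 and ID4, and HES1, NOTCH2 and DNER, and make up 10 of 7749 coding genes measured. The choice was made with earlier results of these data known, so their ranks among all genes are descriptive only. Array expression was measured in 4 samples with 1 sample in each group, namely polysomal RNA of cells given 5 µM ATO for 6 h, polysomal RNA of untreated cells, total RNA of ATO-treated cells and total RNA of untreated cells. The labels give only the abbreviation ATO, in common use for arsenic trioxide. Polysomal RNA is the RNA that sediments with several ribosomes in a sucrose gradient. All cultures were LN229 grown in medium with serum, a condition of the established line and not a stem cell culture, and the labels describe no selection of stem-like cells. The comparisons ask which transcripts stood higher or lower on polysomes than in total RNA, and which differed with ATO in either fraction.

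No difference below carries an error between replicates or a test, because each group holds 1 sample, and precision is limited by the small number of arrays. Values are deposited log2 values, and differences are polysomal minus total or ATO minus untreated. Where polysomal and total values are said to overlap or not, this only describes the 4 arrays. The share of all genes without overlap was not counted, so a lack of overlap is not a result particular to a member. The ATO and untreated arrays are also not replicates of a fraction. The scale is not plain log2 intensity, since 406 of 65528 probe sets exceeded 16, so a fold is a fold on that scale. A coding gene was kept for counts when its mean log2 value over the 4 samples was at least 7.80, the median of coding genes, which left 3876 genes and 9 of the 10 members. ID4, with a mean of 7.29, lay below that level. Each member was read from 1 probe set. The sample titled ATO total RNA has a source name that reads polysomal. The title was followed, and over all probe sets the sample correlated at r = 0.991 with untreated total and r = 0.987 with ATO polysomal RNA. Among the measured genes of marker lists for other cells, 2 of 6 astrocyte genes and 1 of 3 oligodendrocyte-lineage genes passed the filter. The counts were 1 of 4 for neuron, 1 of 7 for microglia and blood, 0 of 2 for endothelial and 0 of 1 for epithelial genes. Each list also held genes that were not measured.

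SOX2, a high-mobility-group transcription factor, maintains neural stem cells, and its relatives SOX4 and SOX11 act in committed neural progenitors and young neurons. Nestin, the NES product, is an intermediate filament protein of neural progenitors and of many gliomas. ID proteins carry a helix-loop-helix domain without the basic region that binds DNA, so they pair with E proteins and keep them off DNA, and bone morphogenetic protein (BMP) signalling switches their genes on. In the Notch pathway a ligand on a neighbouring cell leads to cleavage of the receptor, the released intracellular part joins RBPJ on DNA, and targets such as HES1, a repressor of proneural genes, are transcribed.

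The upstream windows of 5 members are shown because ID2 and ID3 stood highest on polysomes among the 9 members past the filter, SOX2 and SOX4 had the most similar profiles of any member pair, and HES1 is the Notch target of the group. Each run is the 250 bases before the transcription start in the RefSeq table of GRCh38.p14, written 5′ to 3′ on the gene's strand. Capitals mark CCAAT on either strand (the CCAAT box, written ATTGG where it lies on the other strand) and TATAA on the gene's strand in the first 4, and TGGGAA on either strand, the core that RBPJ binds, in HES1.
ID2 (GRCh38.p14, chr2:8681806-8682055, plus strand): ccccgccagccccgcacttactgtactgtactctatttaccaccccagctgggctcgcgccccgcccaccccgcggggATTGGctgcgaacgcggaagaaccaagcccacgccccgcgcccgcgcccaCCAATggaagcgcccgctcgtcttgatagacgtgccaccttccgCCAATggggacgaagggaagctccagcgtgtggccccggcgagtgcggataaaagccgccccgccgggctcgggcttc
ID3 (GRCh38.p14, chr1:23559502-23559751, minus strand): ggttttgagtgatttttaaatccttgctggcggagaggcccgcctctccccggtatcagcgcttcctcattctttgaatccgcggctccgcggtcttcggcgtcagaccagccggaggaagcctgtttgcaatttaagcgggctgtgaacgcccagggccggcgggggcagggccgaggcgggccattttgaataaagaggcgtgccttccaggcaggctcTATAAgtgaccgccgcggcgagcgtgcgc
SOX2 (GRCh38.p14, chr3:181711675-181711924, plus strand): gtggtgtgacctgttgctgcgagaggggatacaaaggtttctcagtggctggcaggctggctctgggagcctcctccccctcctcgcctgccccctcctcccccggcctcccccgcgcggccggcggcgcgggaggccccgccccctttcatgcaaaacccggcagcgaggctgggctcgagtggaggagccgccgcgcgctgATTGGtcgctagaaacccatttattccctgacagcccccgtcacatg
SOX4 (GRCh38.p14, chr6:21593501-21593750, plus strand): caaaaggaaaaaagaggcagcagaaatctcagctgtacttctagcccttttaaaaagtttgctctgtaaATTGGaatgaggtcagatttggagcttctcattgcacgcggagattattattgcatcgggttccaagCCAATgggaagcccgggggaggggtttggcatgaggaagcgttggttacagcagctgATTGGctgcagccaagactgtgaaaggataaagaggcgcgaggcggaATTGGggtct
HES1 (GRCh38.p14, chr3:194135898-194136147, plus strand): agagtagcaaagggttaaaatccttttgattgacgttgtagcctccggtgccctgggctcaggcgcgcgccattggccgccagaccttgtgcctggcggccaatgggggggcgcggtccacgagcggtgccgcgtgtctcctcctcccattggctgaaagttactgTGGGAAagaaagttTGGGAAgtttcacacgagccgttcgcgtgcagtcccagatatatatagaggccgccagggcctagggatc
The array reads RNA and not promoter activity, and no value below depends on these windows. Promoters of 8 members were matched, the others being SOX11 and DNER. HES1 held TGGGAA 2 times, and 2.9% of 35116 promoters of the same length held it at least 2 times, while 20.8% held it at least once. SOX4 held it 1 time, where its first base is also the last base of a CCAAT match. CCAAT occurred 3 times in ID2, 4 times in SOX4, 3 times in HES1 and 1 time each in SOX2 and ID4. Of all promoters, 32% held at least 1 match and 9.53% at least 2. TATAA was found in ID3 and ID4, at positions -29 to -25 from the start in both, and in 13.6% of all promoters anywhere in the window. CAGCTG, an E-box of the kind that E proteins bind, occurred 2 times in SOX4 and 1 time each in ID2 and ID4. At least 1 match was found in 14% of all promoters and at least 2 in 1.27%. CACNAG, the N-box that HES proteins bind, occurred 3 times in HES1, counting both strands. It was held at least once by 32% of all promoters and at least 2 times by 6.32%. CACGTG and GGCGCC were found in none of the 8 windows, against 6.34% and 16.4% of all promoters.

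**Figure D1:**
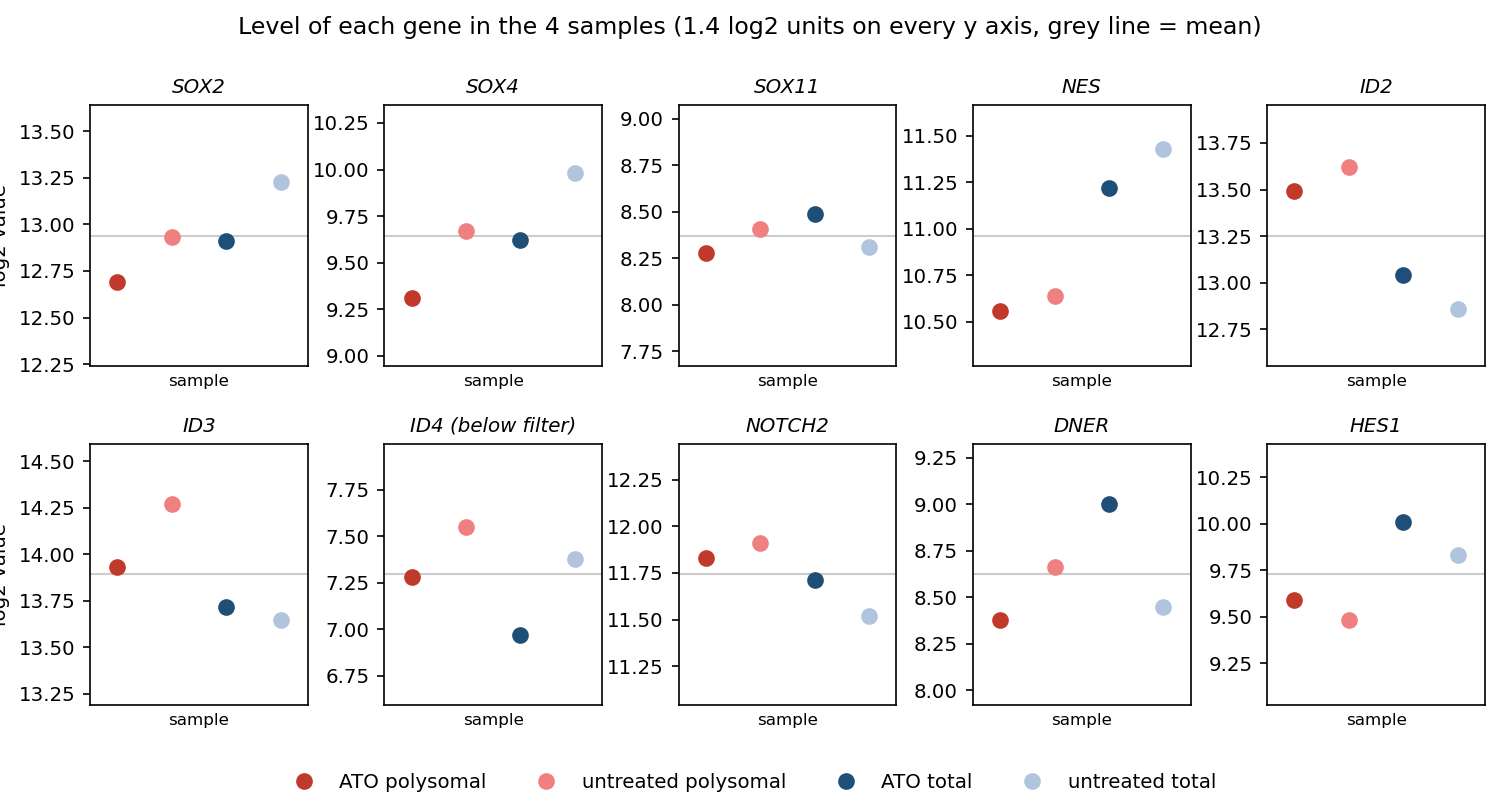
Log2 value of each of the 10 genes (y axis) in the 4 samples (x axis, 1 point per sample, coloured by group), with every y axis spanning the same number of log2 units and a grey line at the gene's mean. NES lay lower and ID2 higher in both polysomal samples, and DNER was highest in ATO total RNA at 9.00.

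None of the 3 SOX genes differed by 1.5-fold between polysomal and total RNA in either state, and SOX2 and SOX4 had values below 0 in both. SOX2 (Entrez gene 6657, chromosome 3) had log2 values of 12.69 in ATO polysomal and 12.93 in untreated polysomal RNA, against 12.91 in ATO total and 13.23 in untreated total RNA. In each treatment state its polysomal value was the lower one, by a difference of -0.22 in ATO and -0.30 in untreated cells. SOX4 (Entrez gene 6659, chromosome 6) had 9.31 in ATO polysomal and 9.67 in untreated polysomal RNA, against 9.62 in ATO total and 9.98 in untreated total RNA. Its difference was the same in both states, -0.31. SOX11 (Entrez gene 6664, chromosome 2), the closest relative of SOX4 among the members, had 8.28 in ATO polysomal and 8.41 in untreated polysomal RNA, against 8.49 in ATO total and 8.31 in untreated total RNA. The 4 values of SOX11 spanned 0.21, the narrowest range of any member, and its difference was -0.21 in ATO and 0.10 in untreated cells.

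NES (Entrez gene 10763, chromosome 1) stood lowest on polysomes in both states. It had 10.56 in ATO polysomal and 10.64 in untreated polysomal RNA, against 11.22 in ATO total and 11.43 in untreated total RNA. Both polysomal values lay below both total values. Polysomal RNA was 1.58-fold lower in ATO cells (-0.66) and 1.73-fold lower in untreated cells (-0.79). Of the 3876 coding genes, 116 had a lower difference in ATO cells and 67 in untreated cells.

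ID2 and ID3 stood higher on polysomes. ID2 (Entrez gene 3398, chromosome 2) had 13.49 in ATO polysomal and 13.62 in untreated polysomal RNA, against 13.04 in ATO total and 12.86 in untreated total RNA. The polysomal values exceeded both total values, and the difference was 0.45 in ATO cells and 0.76, or 1.69-fold, in untreated cells. ID3 (Entrez gene 3399, chromosome 1) had 13.93 in ATO polysomal and 14.27 in untreated polysomal RNA, against 13.72 in ATO total and 13.65 in untreated total RNA. Both polysomal values of ID3 also lay above both total values, with the untreated polysomal value the highest. The difference was 0.21 in ATO cells and 0.62, or 1.54-fold, in untreated cells. ID4 (Entrez gene 3400, chromosome 6), below the filter, had 7.28 in ATO polysomal and 7.55 in untreated polysomal RNA, against 6.97 in ATO total and 7.38 in untreated total RNA. Its differences were 0.31 and 0.17 in ATO and untreated cells, and its values overlapped between the fractions.

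Of the Notch members, the receptor stood above 0, the target HES1 below 0, and DNER differed between the treatment states. NOTCH2 (Entrez gene 4853, chromosome 1), a Notch receptor, had 11.83 in ATO polysomal and 11.91 in untreated polysomal RNA, against 11.71 in ATO total and 11.52 in untreated total RNA. Both polysomal values were above both total values, by 0.12 in ATO and 0.39 in untreated cells. HES1 (Entrez gene 3280, chromosome 3) had 9.59 in ATO polysomal and 9.48 in untreated polysomal RNA, against 10.01 in ATO total and 9.83 in untreated total RNA. It lay lower on polysomes in both states, at -0.42 in ATO and -0.35 in untreated cells, and its fractions did not overlap. DNER (Entrez gene 92737, chromosome 2), a transmembrane protein with EGF-like repeats described in mouse as a Notch ligand, had 8.38 in ATO polysomal and 8.66 in untreated polysomal RNA, against 9.00 in ATO total and 8.45 in untreated total RNA. The ATO total value stood apart from the other samples, and the difference was -0.62, or 1.54-fold lower, in ATO cells and 0.21 in untreated cells. That ATO total value comes from the sample whose source name reads polysomal against its title.

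**Figure D2:**
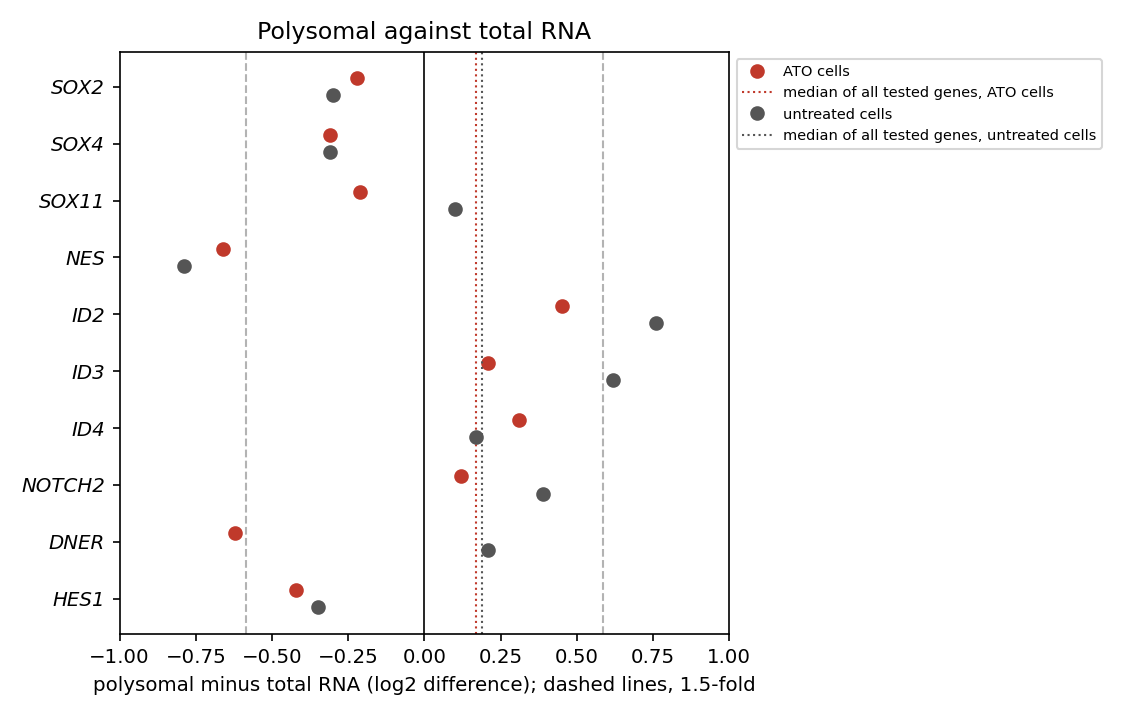
Polysomal minus total RNA (x axis, log2 difference) for each gene (y axis), 1 point for ATO and 1 for untreated cells, with dotted lines at the medians of all 3876 coding genes (0.17 in ATO, 0.19 in untreated cells) and dashed lines at 1.5-fold. NES lay beyond the lower line in both states, DNER in ATO cells alone, and ID2 and ID3 beyond the upper line in untreated cells alone.

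Of the 9 members past the filter, 0 were over 1.5-fold higher on polysomes in ATO cells and 2 were over 1.5-fold lower (NES and DNER), where 14.7% and 3.92% of all 3876 genes were. In untreated cells 2 were higher (ID2 and ID3) and 1 lower (NES), where 16.2% and 4.72% of all genes were. The members' median was -0.22 in ATO and 0.10 in untreated cells, beside 0.17 and 0.19 over all genes. Since that all-gene shift depends on the scaling, the differences are also given relative to it. On that basis ID2 stood at 0.28 in ATO and 0.57 in untreated cells, ID3 at 0.04 and 0.43, and NOTCH2 at -0.05 and 0.20. NES stood at -0.83 in ATO and -0.98 in untreated cells, HES1 at -0.59 and -0.54, SOX4 at -0.48 and -0.50, and SOX2 at -0.39 and -0.49. SOX11 stood at -0.38 in ATO and -0.09 in untreated cells, and DNER at -0.79 and 0.02. ID2 and ID3 thus lay above the all-gene median in both states, and NES, HES1, SOX2, SOX4 and SOX11 below it in both. However, ID3 in ATO cells (0.04) and SOX11 in untreated cells (-0.09) were close to that median. After subtraction of a loess trend on mean level, 222 genes were over 1.5-fold higher and 320 lower in ATO cells, in place of 570 and 152, and 251 and 361 in untreated cells, in place of 629 and 183. ID2 (0.56) and ID3 (0.41) then came within 1.5-fold in untreated cells, while NES and DNER kept their places. In ATO cells ID3 then stood at -0.01.

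The comparison of ATO with untreated cells gave differences under 1.5-fold for every member in both fractions. In bulk RNA, fewer cells that express a gene and less of its RNA per cell cannot be told apart. In total RNA, which gives RNA abundance, 0 of 9 members passed 1.5-fold, as did 0.103% of all genes upward and 0.361% downward. DNER came nearest, at 0.55 or 1.46-fold higher with ATO, and 6 of 3876 genes had a larger difference. SOX4 stood at -0.36 and SOX2 at -0.32, with 114 and 184 genes lower. NES was at -0.21, ID3 at 0.07, NOTCH2 at 0.19, and SOX11, ID2 and HES1 at 0.18 each, while ID4, below the filter, was at -0.41. Of the 9 members past the filter, 6 lay above 0 in total RNA, as did 43.7% of all genes. The members' median was 0.18 and that of all genes -0.02. The central 95% of all genes lay between -0.38 and 0.33, with DNER the 1 member past the filter outside it.

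In polysomal RNA 0 of 9 members passed 1.5-fold, beside 0.258% of all genes upward and 0.877% downward. SOX4 (-0.36) and ID3 (-0.34) stood lowest, followed by DNER (-0.28) and SOX2 (-0.24). ID2 and SOX11 were at -0.13 each and NES and NOTCH2 at -0.08 each, and HES1, at 0.11, was the 1 member above 0. ID4 was at -0.27. In all, 1 of the 9 members lay above 0 and 8 below, where 45.5% of all genes lay above 0. The members' median was -0.13, beside -0.02 over all genes. The central 95% of all genes ran from -0.47 to 0.38 and held all 9 members. After the loess subtraction 15 genes were over 1.5-fold higher and 26 lower, in place of 10 and 34, and still 0 members.

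SOX2, SOX4 and NES were lower with ATO in both fractions, HES1 was higher in both, and SOX11, ID2, ID3, NOTCH2 and DNER were higher in total and lower in polysomal RNA. For SOX4 the value was -0.36 in polysomal and -0.36 in total RNA. For SOX2 it was -0.24 in polysomal and -0.32 in total RNA. None of these reached 1.5-fold in either fraction, and the share of all genes with opposite signs in the fractions was not counted.

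**Figure D3:**
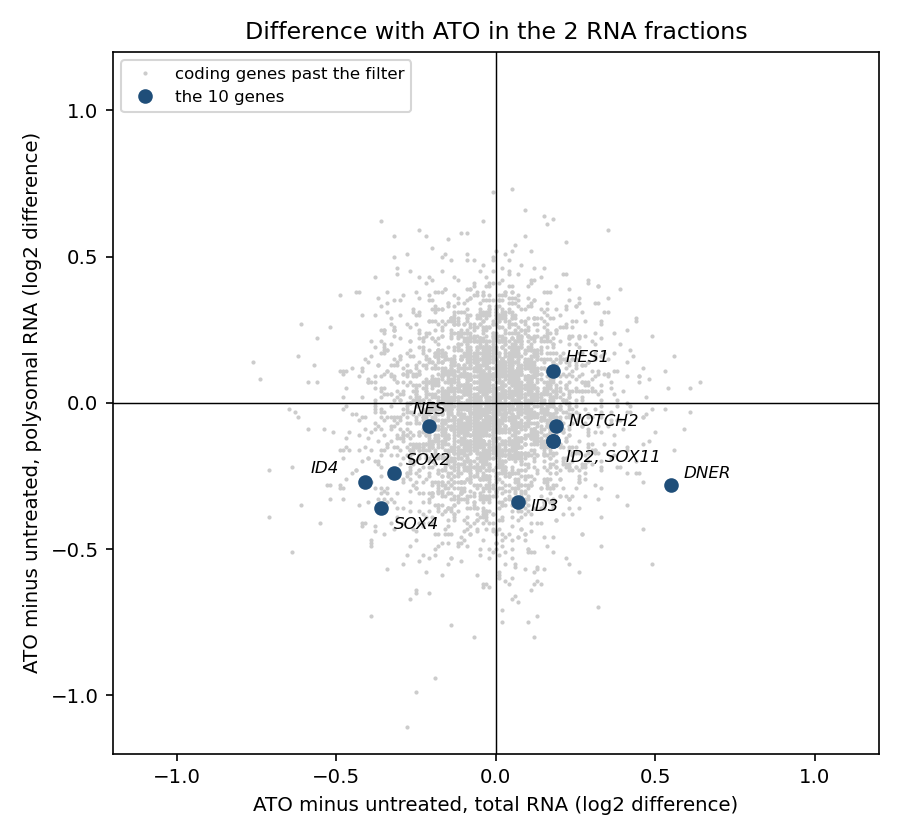
ATO minus untreated in total RNA (x axis, log2 difference) and in polysomal RNA (y axis, log2 difference) for the 10 genes, labelled, over the 3876 coding genes past the filter in grey (ID4 lies below the filter). SOX2, SOX4, NES and ID4 sit in the lower left, HES1 alone in the upper right, and DNER farthest to the right at 0.55.

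The polysomal/total ratio in ATO cells minus that in untreated cells uses all 4 samples and so shares them with the comparisons above. DNER was the 1 member of 9 past 1.5-fold, at -0.83 (1.78-fold lower), where 2.01% of all genes were over 1.5-fold lower and 1.6% higher. Of 3876 genes, 7 had a lower value. Both parts of the ratio entered it, with total RNA at 0.55 and polysomal RNA at -0.28, and the DNER levels, 8.38 to 9.00, lie near the filter level of 7.80. ID3 followed at -0.41, then ID2 and SOX11 at -0.31 each and NOTCH2 at -0.27. HES1 (-0.07), SOX4 (0.00), SOX2 (0.08) and NES (0.13) were near the all-gene median of 0.00, and ID4 was at 0.14.

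Profiles were also compared among the members, each centred on its own mean, by the Euclidean distance over the 4 samples. Of 36 pairs, SOX2 and SOX4 were closest (0.10), followed by ID2 with ID3 (0.25) and ID3 with NOTCH2 (0.26), and NES and ID2 were farthest apart (1.36). NES and ID2 also had the widest ranges over the samples, 0.87 and 0.76. The coding genes nearest to NES were TANC1 (distance 0.03), TFG (0.05) and WDR3 (0.08), and those nearest to ID2 were SLC35A4 (0.03), PPP1R7 (0.04) and NEMP2 (0.04). With only 4 samples such distances describe these arrays alone.

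Some members share sequence or position with other transcripts, whose values are given for that reason. SOX2 lies within the long noncoding RNA gene SOX2-OT on the same strand, and probes there could read both. SOX2-OT, unlike SOX2, had polysomal minus total differences above 0, at 0.23 in ATO and 0.24 in untreated cells. These were near the medians of all coding genes past the filter, 0.17 and 0.19. The ATO difference of SOX2-OT was -0.16 in polysomal and -0.15 in total RNA. NOTCH2 has a near-identical partial copy in NOTCH2NLA, so its values are uncertain to that extent. The NOTCH2NLA probe set of highest level stood at 0.42 in ATO and 0.19 in untreated cells, polysomal minus total, and at 0.10 in polysomal and -0.13 in total RNA, ATO minus untreated. In both ATO differences the sign is opposite to that of NOTCH2. ID2-AS1, the antisense neighbour of ID2, had log2 values of 5.27 to 5.58, well below the filter level.

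The other genes of these pathways are set beside the shares of all genes given above, which were 14.7% over 1.5-fold higher and 3.92% lower on polysomes in ATO cells, 16.2% and 4.72% in untreated cells, and under 1% in each direction for ATO against untreated. At those last shares, counts of 0 in lists of this size say nothing particular about a list. Of 51 further Notch pathway genes listed, 28 were measured and 15 passed the filter. The median polysomal minus total difference of the 15 was -0.04 in ATO and 0.06 in untreated cells. Here and below, the levels of listed genes that were not measured are unknown. In each state 1 gene was over 1.5-fold higher and 0 were over 1.5-fold lower. In ATO cells it was POGLUT1 (0.83, against 0.20 in untreated cells), which glucosylates EGF repeats of Notch, with 9.42 in ATO polysomal and 9.01 in untreated polysomal RNA, against 8.59 in ATO total and 8.81 in untreated total RNA. Its ATO polysomal value was the highest of the 4 samples, and its ratio difference was 0.63. In untreated cells it was the corepressor CTBP1 (0.71, against 0.46 in ATO cells). The genes of highest level were APH1A, a subunit of the protease gamma-secretase (-0.18 in ATO, 0.01 in untreated cells), the acetyltransferase KAT2B (0.29, 0.10) and the deacetylase HDAC1 (-0.40, -0.16). With ATO, 0 of the 15 passed 1.5-fold in either fraction, and the median was -0.11 in polysomal and -0.05 in total RNA.

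Of 47 BMP and related bHLH genes listed, 32 were measured and 14 passed the filter. The 14 had a median of 0.20 in ATO and 0.28 in untreated cells. FST, which encodes the activin-binding protein follistatin, was over 1.5-fold higher on polysomes in both states (0.67 in ATO, 0.65 in untreated cells) and stood at 0.03 in polysomal and 0.01 in total RNA with ATO. SMAD5, a BMP-activated transcription factor (0.27 in ATO, 0.15 in untreated cells), the activin subunit INHBA (-0.17, -0.42) and the bHLH repressor BHLHE40 (-0.36, -0.55) had the highest levels. With ATO, 0 of the 14 passed 1.5-fold, and the medians were 0.03 in polysomal and -0.06 in total RNA. Of 16 further SOX family genes listed, only 5 were measured. Among those 5, SOX13 alone passed the filter (-0.16 in ATO, -0.24 in untreated cells), and the 11 others were not read.

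Of 37 other glioma stem and progenitor genes listed, 25 were measured and 13 passed the filter. The 13 had a median of 0.01 in ATO and 0.00 in untreated cells. NFIA, a transcription factor of gliogenesis, was the 1 gene past 1.5-fold, in untreated cells (0.60, against 0.32 in ATO cells). HMGA1, a chromatin architectural protein (-0.16 in ATO, 0.33 in untreated cells), FABP7, the fatty acid-binding protein of radial glia (0.38, 0.39), and EZH2, the Polycomb methyltransferase (-0.18, -0.26), had the highest levels. MYCN, named after its value was seen, had a ratio difference of 0.67, the 1 value of this list past 1.5-fold there, with levels of 7.75 to 8.15 close to the filter. With ATO, 0 of the 13 passed 1.5-fold in either fraction.

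**Figure D4:**
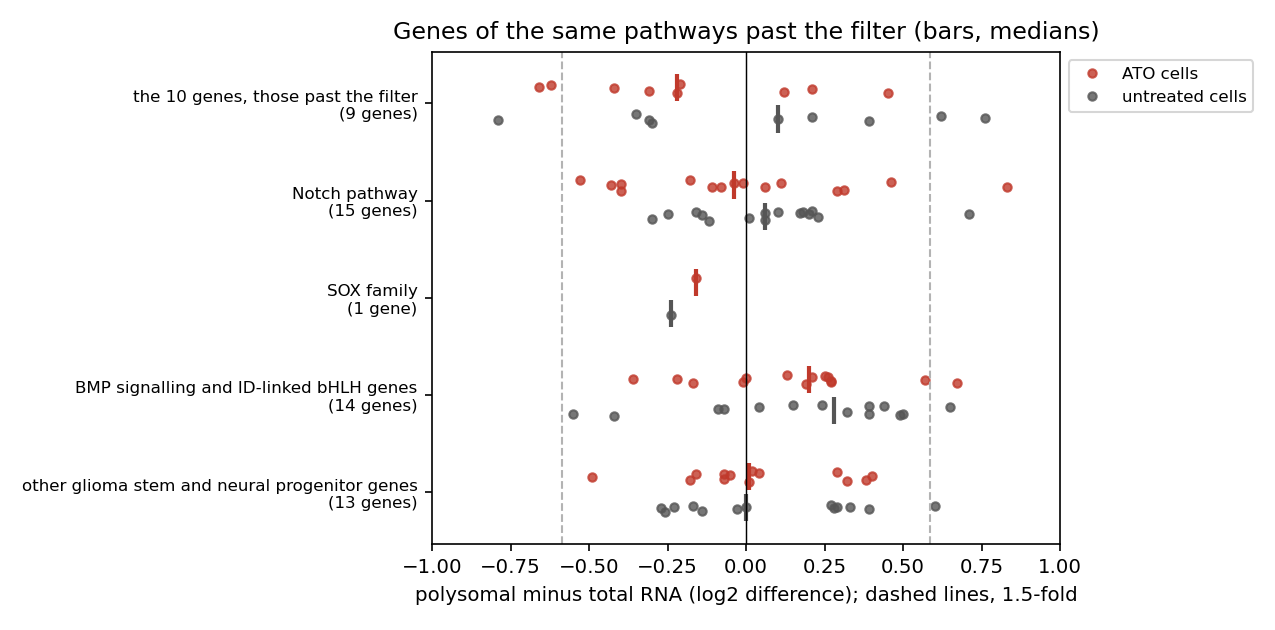
Polysomal minus total RNA (x axis, log2 difference) for the 9 members past the filter and the 4 further gene lists (y axis), 1 point per gene, for ATO and untreated cells, with bars at medians and dashed lines at 1.5-fold. POGLUT1 at 0.83 in ATO cells is the highest point, and NES at -0.79 in untreated cells the lowest.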

How the data were processed

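Arrays of total and polysomal RNA from LN229 cells were used, 4 samples in 4 groups taken from sample titles. The deposited values are log2 values with 2 decimals, one for each probe set. Per the submitters' processing notes the authors used Affymetrix Expression Console, and per the series' design text technical replicates were pooled. The sources used here do not give the summary method, the normalization, the version or the genome build. An unknown normalization can shift all polysomal against all total values, so an overall difference in polysomal RNA cannot be read.

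Probe sets with 1 gene symbol (16127; 419 had several and 48982 none) were named through the platform annotation, updated through Entrez identifiers. Coding genes followed the RefSeq table of GRCh38.p14. Probe set identifiers cover chromosomes 1 to 8 and, with 1722 probe sets, 9; other chromosomes were not analysed here. Each gene took its brightest probe set by mean. Differences were formed with pandas 2.3.3 and loess trends with statsmodels 0.14.6. Genes past 1.5-fold were counted, and no test was run. The arithmetic was tested on simulated data. Further genes named were the 3 of highest level in each of 4 lists and any past 1.5-fold between samples, and the 3 profiles nearest to the 2 members of widest range. Members and lists were chosen with earlier results of these data known.

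Alternatives were sample centring, quantile normalization, a 2-fold threshold, loess subtraction (span 0.3), means over probe sets, an offset of 32 on the linear scale, and the filter removed or raised to the 75th percentile.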

Additional observations from a re-analysis of the deposited data

Results flagged for a closer look

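Members with opposite signs in both settings of 1 comparison are listed here, and these differences were not tested. The share of all genes with opposite signs was not counted, so the list is not a result particular to these genes. For ATO minus untreated, the quartiles of all genes were -0.15 and 0.12 in polysomal and -0.13 and 0.08 in total RNA. For polysomal minus total RNA, DNER stood at -0.62 in ATO and 0.21 in untreated cells (ratio difference -0.83), and SOX11 at -0.21 and 0.10 (ratio difference -0.31). For ATO minus untreated, members lower in polysomal and higher in total RNA were DNER (-0.28, 0.55), ID3 (-0.34, 0.07; ratio difference -0.41), SOX11 and ID2 (-0.13, 0.18 each; ratio difference -0.31 each) and NOTCH2 (-0.08, 0.19; ratio difference -0.27). The ratio difference is the same quantity in both comparisons.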

How the results depend on the processing

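Counts of members past 1.5-fold moved under these settings. For polysomal against total RNA in ATO cells the count of 2 became 0 once only genes above the 75th percentile were kept, which left 4 members, 1 with the offset of 32 (DNER at -0.58) and 0 at 2-fold. In untreated cells the count of 3 became 1 after the loess subtraction (ID2 at 0.56, ID3 at 0.41) and 0 at 2-fold. Quantile normalization left 2 there, with ID3 at 0.54, and keeping only genes above the 75th percentile left 2 (ID2 and ID3), since NES lies below that level. For ATO against untreated the count stayed at 0 in polysomal and in total RNA under all 8 alternatives. The stricter threshold, the raised filter and means over probe sets could not have raised those counts. For the ratio difference the count of 1 became 0 above the 75th percentile and 0 at 2-fold. Means over probe sets could not change a member's value, since each member was read from 1 probe set. Of 250 values of single members under alternatives, those included, 246 kept their side of 1.5-fold. The other 4, of ID2, ID3 and DNER, came within 1.5-fold. Signs turned in 3 of the 250 values, all after the loess subtraction and all polysomal minus total. They were SOX11 in untreated cells (-0.04) and ID3 (-0.01) and NOTCH2 (-0.09) in ATO cells. The cause of these changes was not tested beyond the smaller number of members and the stricter threshold. No paired analysis was possible because the groups share fewer than 2 replicate numbers. An additive fit of fraction and treatment over the 4 samples, which would leave 1 residual degree of freedom, was not run. Replicate error is unknown, and no detection calls were used, so values near the filter level of 7.80, such as those of DNER and SOX11, have an unknown distance from background.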
